A study of Mus musculus with 28 samples.

Results

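Mal, Pllp and S100b are genes of the myelin-forming and supporting glia of the brain, and they were followed here in the midbrain of mice injected under the skin with colon carcinoma cells. Each had a single probe, found by its gene symbol in the platform annotation: Mal under NM_010762, Pllp under AK002477 and S100b under NM_009115. They are 3 of 8726 named genes on the arrays, and all 3 were among the 4383 genes bright and complete enough to be tested.

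Myelin is the layered membrane that oligodendrocytes wrap around axons. Mal and Pllp (plasmolipin) both encode small membrane proteins that cross the membrane several times through a MARVEL domain, sit in lipid-rich membrane and take part in the sorting and transport of membrane cargo, in myelin among other places. S100b encodes a calcium-binding protein of the S100 family that is abundant in astrocytes, is also made by oligodendrocyte lineage cells, and can be released from glia, where it serves as a marker of glial activation or damage.

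The animals were male Balb/c mice, 8 weeks old at injection. The tumour group received 1000000 cells of CT-26.WT, a colon carcinoma line of Balb/c origin, in 300 µl PBS, and the control group received 300 µl PBS alone. Midbrains were taken after 18, 72 or 192 h, and the labels name no other treatment or allele. Each array compared a tumour sample with a PBS sample directly, one labelled with Cy3 and the other with Cy5, and the dyes were swapped between arrays.

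The values below come from 21 arrays of 11 biological replicates: 10 arrays of 5 replicates at 18 h, 4 arrays of 2 replicates at 72 h and 7 arrays of 4 replicates at 192 h. The tumour sample was in Cy5 on 9 arrays and in Cy3 on 12. On these arrays, replicates 1 and 2 were polyA RNA, replicate 1 only with the tumour sample in Cy5 and replicate 2 only with it in Cy3. Replicates 3 to 5 were hybridised as total RNA in both orientations. At 72 h, replicates 1 and 2 lay on an array design whose spot brightness did not follow the gene annotation. Its Spearman rho across genes was 0.10, against 0.617 to 0.696 for the designs used, so 72 h rests on replicates 3 and 4. Array 272 of replicate 1 at 192 h lay on another such design (rho 0.143) and was also left out. The labels do not say whether a replicate is 1 animal or a pool, so the p-values measure only the spread between these samples.

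Array 447, which carries replicate 3 at 72 h with the tumour sample in Cy3, stood apart from the others. The brightness of its channels correlated with a rho of 0.0583 across spots, against 0.611 to 0.983 on the other 20 arrays, and its PBS channel correlated with those of the other arrays at 0.0606, against 0.251 to 0.822. Results of Mal, Pllp and S100b at 72 h are therefore given with and without it. Values of other genes, medians of gene lists and unadjusted counts at 72 h are given only with it. Between 18.1% and 87.7% of the spots of an array had a signal in both channels (median 58.3%).

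Values are log2 ratios of tumour over PBS, so 0 means equal signal and 1 means a doubling. The scanner files name the channels only A and B. They were read as Cy3 and Cy5, the order of the labels, which is the likely direction because the signs of the authors' deposited table follow it. If the order were the reverse, every sign below would turn. The brightness given for the PBS channel would then be that of the tumour sample.

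No probe of the 4474 tested passed an adjusted p of 0.05 at any time (0% called by limma at 18, 72 and 192 h). At an unadjusted p under 0.05, limma gave 240 probes at 18 h (5.36%), 387 probes at 72 h (8.65%) and 43 probes at 192 h (0.961%). The mean of the 3 times gave 0 calls as well (0%, with 250 probes, 5.59%, at an unadjusted p under 0.05). S100b at 72 h was the only value of the 3 genes among these. The following values are therefore levels with their spread, none of them a change that passed the test.

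For Mal at 18 h, replicates 1 to 5 gave log2 ratios of -0.36, 0.21, -0.36, 0.12 and -0.11. At 72 h, replicate 3 gave 0.82 and replicate 4 gave -0.08. At 192 h, replicates 1 to 4 gave -0.17, -0.07, 0.00 and 0.06. Every time held replicates on both sides of 0, and the 3 times overlapped. The fitted log2 ratio of Mal was -0.10 at 18 h (SE 0.12, n = 5, limma adjusted p = 0.962), 0.37 at 72 h (SE 0.20, n = 2, limma adjusted p = 0.612) and -0.05 at 192 h (SE 0.14, n = 4, limma adjusted p = 1.00). The 95% confidence interval at 192 h ran from -0.35 to 0.26, and that at 18 h from -0.37 to 0.17. Without replicate 2 the fitted value at 192 h was 0.053.

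The high Mal value at 72 h came from 1 array. Array 447 gave 1.75, while the other arrays at 72 h gave -0.12, -0.21 and 0.05. Without array 447 the fitted log2 ratio of Mal at 72 h was -0.02 (SE 0.15, limma adjusted p = 0.995), on the other side of 0. With replicate 4 left out, 72 h rested on replicate 3 with that array, and Mal at 0.82 then passed (limma adjusted p = 0.0427), as 1 of 291 probes called. In the PBS channel of that array the Mal spot lay at percentile 10.6 of brightness, and on the other arrays at 72 h it lay between 91.0 and 97.2. In bulk tissue such as this, fewer cells of a type and less RNA in each cell cannot be told apart.

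For Pllp at 18 h, replicates 1 to 5 gave log2 ratios of -0.52, 0.92, -0.21, -0.13 and 0.46. At 72 h, replicate 3 gave 2.62 and replicate 4 gave -0.12. At 192 h, replicates 1 to 4 gave -0.48, 0.10, 0.20 and -2.45. Pllp had the widest spread of the 3 genes: its SD between replicates was 0.58 at 18 h and 1.23 at 192 h, against 0.26 and 0.10 for Mal and 0.26 and 0.06 for S100b. The fitted log2 ratio of Pllp was 0.10 at 18 h (SE 0.39, limma adjusted p = 0.993), 1.25 at 72 h (SE 0.62, limma adjusted p = 0.599) and -0.66 at 192 h (SE 0.44, limma adjusted p = 1.00).

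Both extreme Pllp values rest on 1 array each. The 2.62 at 72 h is the mean of 5.20 on array 447 and 0.04 on the swapped array of the same replicate. Without array 447 the fitted value at 72 h was 0.17 (SE 0.51, limma adjusted p = 0.995). With replicate 4 left out in its place, Pllp at 2.62 passed (limma adjusted p = 0.0493). The -2.45 at 192 h comes from the array of replicate 4 with the tumour sample in Cy5, because the swapped array of that replicate gave no Pllp ratio. The fit nevertheless counted that replicate as measured in both orientations. With orientation computed for each probe, Pllp was -0.46 at 192 h (SE 0.39) and -1.70 for 192 h minus 72 h (SE 0.66). Without replicate 4 the fitted value at 192 h was -0.061, and without replicate 2 that at 18 h was -0.0096. When only replicates measured in both orientations were kept, an alternative chosen after seeing the data, Pllp at 192 h was 0.20, the value of replicate 3 alone.

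For S100b at 18 h, replicates 1 to 5 gave log2 ratios of 0.40, -0.32, 0.05, 0.08 and -0.02. At 72 h, replicate 3 gave 0.48 and replicate 4 gave 0.17, and all 4 arrays behind them, 2 in each dye orientation, lay above 0 (0.40, 0.57, 0.13 and 0.21). At 192 h, replicates 1 to 4 gave -0.15, -0.14, -0.09 and -0.01. Both replicates at 72 h thus lay above 0 and all 4 at 192 h below it, without overlap, while the 18 h replicates spanned both. How many other probes separated 72 h from 192 h in this way was not counted. For the difference between these times, 5.83% of the probes tested had a limma unadjusted p under 0.05. At 192 h, however, 3 of the 7 arrays lay above 0.

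The fitted log2 ratio of S100b was 0.04 at 18 h (SE 0.09, limma adjusted p = 0.987), 0.33 at 72 h (SE 0.15, n = 2, limma unadjusted p = 0.0443 and adjusted p = 0.564) and -0.10 at 192 h (SE 0.10, limma adjusted p = 1.00). Without array 447 the S100b value at 72 h was 0.20 (SE 0.14, limma adjusted p = 0.995). Replicate 3 was the higher of the 2 replicates with and without that array, since its other array gave 0.40. Without replicate 1 of each time in turn, the fitted S100b value was -0.027 at 18 h and 0.019 at 192 h, on the other side of 0.

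**Figure D1:**
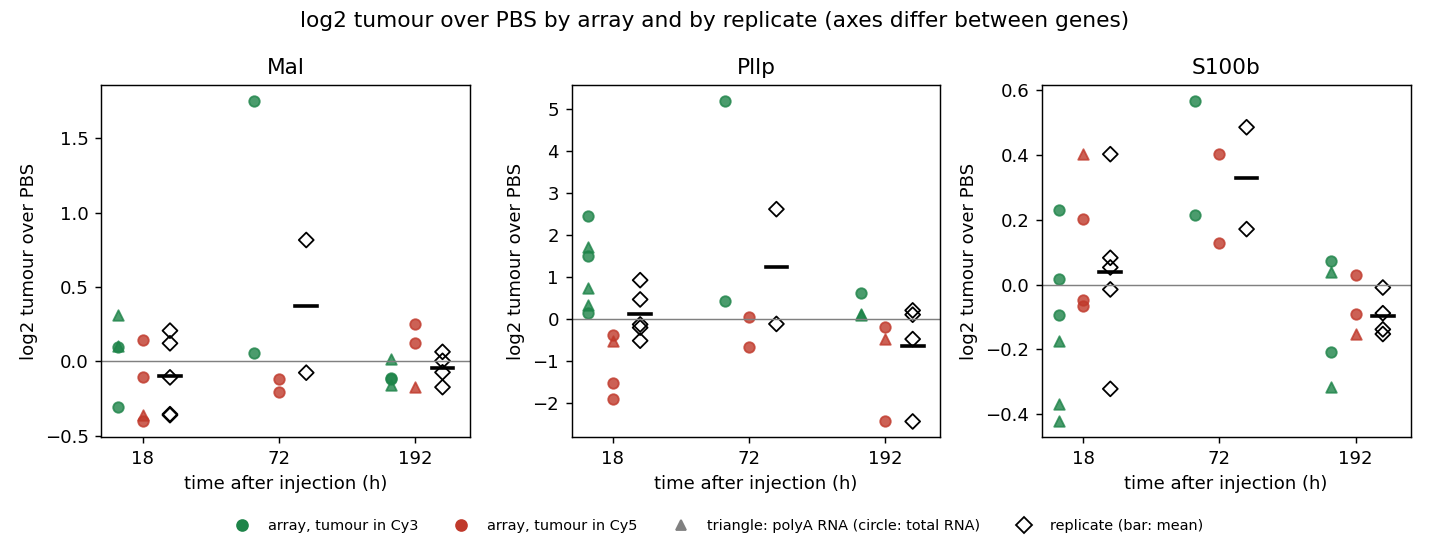
log2 tumour over PBS (vertical axis, scaled separately for each gene) against time after injection in hours, for Mal, Pllp and S100b. Filled points are arrays, green with the tumour sample in Cy3 and red with it in Cy5, triangles for polyA and circles for total RNA; open diamonds are biological replicates and the bar is their mean. The Pllp arrays separate by colour at 18, 72 and 192 h, and the Mal and Pllp points at the top of 72 h (1.75 and 5.20) are array 447.

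The difference between times was tested for the same 3 genes. From 72 h to 192 h the fitted difference was -1.90 for Pllp (SE 0.76, limma unadjusted p = 0.0286), -0.43 for S100b (SE 0.18, limma unadjusted p = 0.0350) and -0.41 for Mal (SE 0.24, limma unadjusted p = 0.109), each with a limma adjusted p of 0.773. The limma test found 261 probes at an unadjusted p under 0.05 for this difference (5.83% of those tested) and 0 after adjustment (0%). Without array 447 these differences were -0.83 for Pllp, -0.29 for S100b and -0.02 for Mal, all with a limma adjusted p of 1.00. With replicate 4 at 72 h left out, the Pllp difference was -3.27 and passed (limma adjusted p = 0.0396). The 72 h minus 18 h difference was 0.47 for Mal (SE 0.23), 1.14 for Pllp (SE 0.74) and 0.29 for S100b (SE 0.17), with limma adjusted p of 0.727, 0.748 and 0.741 (0% called, 282 probes or 6.3% at an unadjusted p under 0.05). Without array 447 it was 0.078 for Mal, 0.069 for Pllp and 0.16 for S100b. The 192 h minus 18 h difference was 0.05 for Mal, -0.76 for Pllp and -0.14 for S100b, each with a limma adjusted p of 0.998 (0% called, 97 probes or 2.17% at an unadjusted p under 0.05). Without replicate 4 at 192 h, that of Pllp was -0.17, and without replicate 3 at 18 h, that of Mal was -0.0095. The 3 times together gave an F-test adjusted p of 0.906 for each gene, and no probe was called by it (0%, with 157 probes, 3.51%, at an unadjusted p under 0.05).

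Over all 11 replicates regardless of time, the mean log2 ratio was 0.01 for Mal (SD 0.32), 0.03 for Pllp (SD 1.20) and 0.04 for S100b (SD 0.24). Each gene lay above 0 in 5 of 11 replicates. The exact two-sided sign-flip permutation test gave p = 0.960 for Mal, 0.898 for Pllp and 0.572 for S100b, where the smallest p this design allows is 0.000977. Without array 447 the means were -0.08 for Mal and -0.20 for Pllp, on the other side of 0 (exact p = 0.180 and 0.566).

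**Figure D2:**
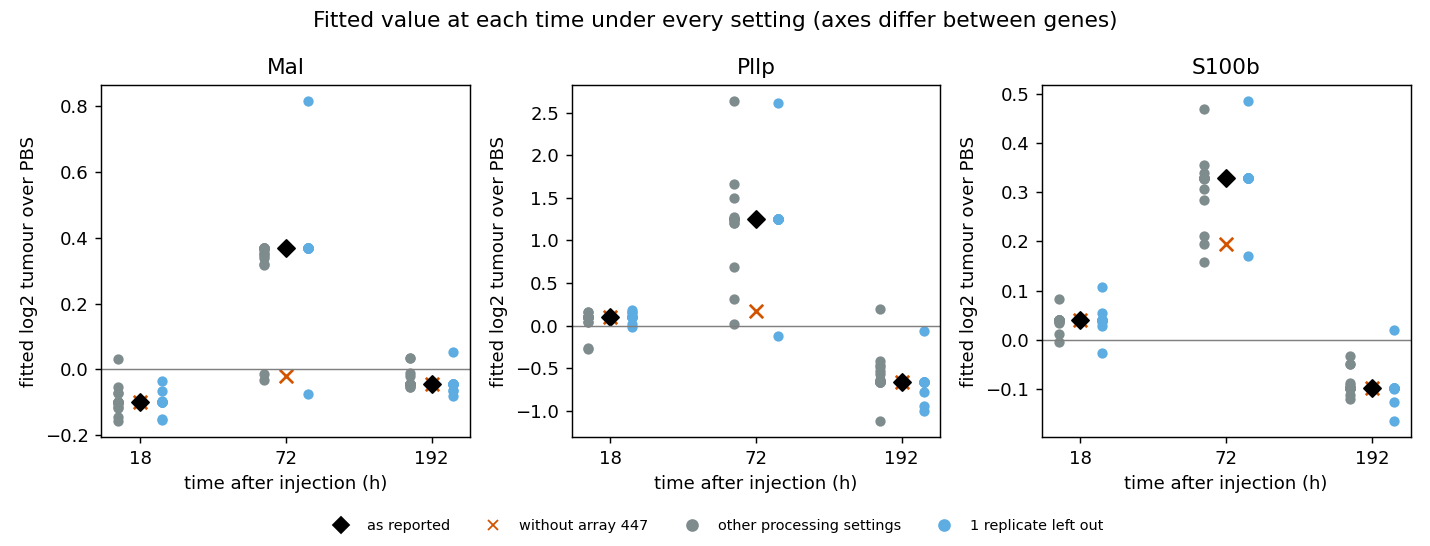
Fitted log2 tumour over PBS (vertical axis, scaled separately for each gene) against time in hours. The black diamond is the value reported, the orange cross the value without array 447, grey points the other processing settings and blue points the fits with 1 replicate left out; at 72 h the Mal value moves from 0.37 to -0.02 and the Pllp value from 1.25 to 0.17 without array 447.

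The sign of the Pllp ratio followed the dye of the tumour sample. With the tumour sample in Cy3, the Pllp log2 ratio was above 0 on 11 of 11 arrays (lowest 0.09, median 0.61, highest 5.20). With it in Cy5, the ratio was below 0 on 8 of 9 arrays (lowest -2.45, median -0.52, highest 0.04). The arrays of the 2 orientations did not overlap, and the Pllp spot was thus relatively brighter in Cy3 than in Cy5 on 19 of 20 arrays, whichever sample Cy3 held. The exception was the array of replicate 3 at 72 h with the tumour sample in Cy5 (0.04). How many other probes had arrays of the 2 orientations without overlap was not counted. By the size of the gap between the mean ratios of the 2 orientations, Pllp ranked 47th of 4474 probes.

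The total RNA replicates carry the same RNA in both orientations, so the ratio of one orientation can be subtracted from that of the other. For Pllp, this Cy5 minus Cy3 difference was -3.43, -0.53 and -3.98 in replicates 3, 4 and 5 at 18 h. It was -5.16 and -1.10 in replicates 3 and 4 at 72 h, and -0.81 in replicate 3 at 192 h. All 6 pairs lay below 0, with a mean of -2.50 (SD 1.94, exact two-sided sign-flip permutation p = 0.0313, the smallest that 6 pairs allow). Among probes with 6 pairs, 63 of 1445 had every pair below 0 (4.36%). That share leaves out probes with every pair above 0, which the two-sided p also covers.

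In the limma fit of this difference over 4498 probes, 25 were called (0.556%) and 598 had an unadjusted p under 0.05 (13.3%). Pllp ranked 58th by p, with an unadjusted p of 0.00147 and an adjusted p of 0.114, which did not pass. Without array 447 its mean difference was -1.97 (limma adjusted p = 0.244), and over all settings it lay between -2.90 and -1.27. The polyA arrays, which the paired fit did not use, showed the same sides. Pllp was -0.52 and -0.48 on the 2 arrays with the tumour sample in Cy5, and 0.73, 0.33, 1.71, 0.09 and 0.11 on the 5 with it in Cy3. These 7 arrays are 4 replicates, each in 1 orientation only, so dye and replicate cannot be told apart in them. In the authors' deposited table, made from the same arrays, Pllp was above 0 on 10 of 10 arrays with the tumour sample in Cy3 and on 1 of 9 with it in Cy5.

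In the loess-normalized ratios, Mal and S100b showed no such split. Mal lay above 0 on 6 of 10 arrays with the tumour sample in Cy3 and on 3 of 9 with it in Cy5, and S100b on 6 of 12 and on 5 of 9. The Cy5 minus Cy3 difference of Mal ranged from -1.87 to 0.37 over 6 pairs, 3 of them below 0, with a mean of -0.26 (SE 0.27, limma adjusted p = 0.700, exact permutation p = 0.719). That of S100b ranged from -0.29 to 0.30 over 7 pairs, 5 of them below 0, with a mean of -0.03 (SE 0.14, limma adjusted p = 0.927, exact permutation p = 0.688). The 95% confidence interval was -0.34 to 0.27 for S100b and -0.87 to 0.35 for Mal. With median centring in place of loess these means were 0.14 for Mal and 0.79 for S100b, on the other side of 0. The limma adjusted p was then 0.868 for Mal, 0.101 for S100b and 0.0867 for Pllp, whose mean kept its sign. In the authors' deposited table, Mal was above 0 on 4 of 10 arrays with the tumour sample in Cy3. With it in Cy5, Mal was above 0 on 4 of 9. S100b was above 0 there on 4 of 11 and on 6 of 8.

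**Figure D3:**
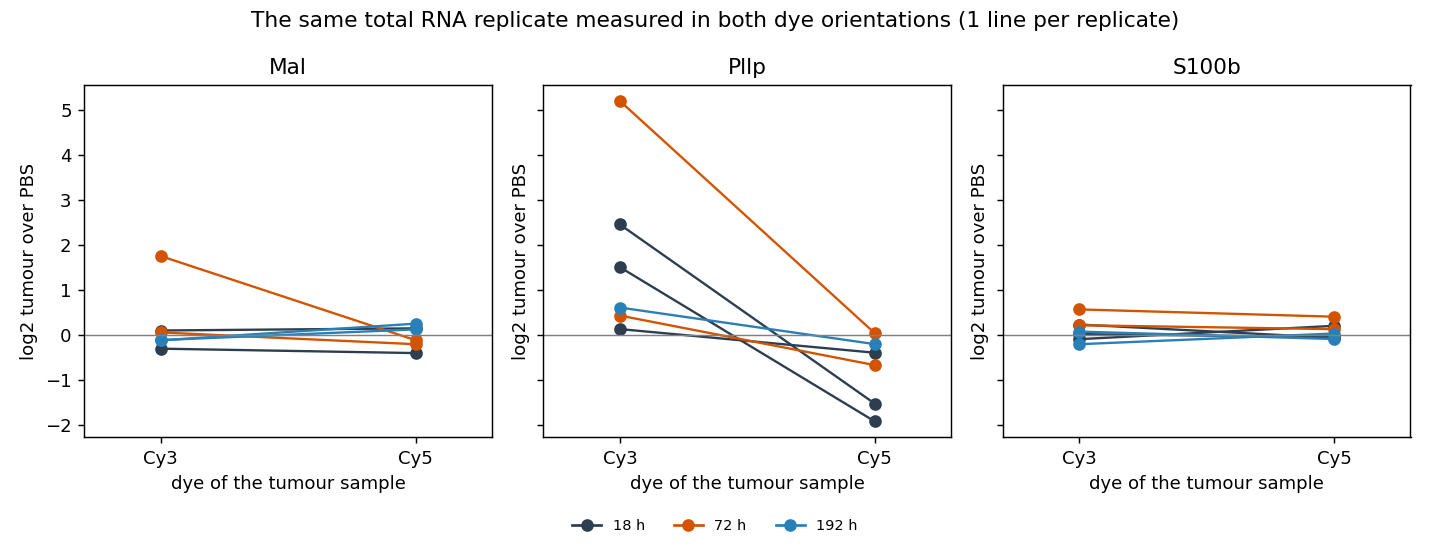
log2 tumour over PBS (vertical axis, the same scale for all genes) with the tumour sample in Cy3 or in Cy5, for total RNA replicates measured both ways; each line is 1 biological replicate, coloured by time. All 6 Pllp lines fall from Cy3 to Cy5, with a mean difference of -2.50, while 3 of 6 Mal lines and 5 of 7 S100b lines do.

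With the channels read as stated above, the brightness of each spot in the PBS channel describes the level in animals without tumour cells. It is given as a percentile among the spots of an array with a signal. It mixes the amount of RNA with how well a probe binds, so levels of different genes are not compared. Mal lay at a median percentile of 89.6 over the 11 replicates (39.0 to 99.2), Pllp at 96.1 (32.7 to 99.0) and S100b at 96.8 (71.8 to 99.7). All 3 were thus among the brighter spots in most replicates, with Mal and Pllp each far lower in some. The percentile also varied with the dye. Pllp stood higher in Cy3 than in Cy5 on 19 of 20 arrays, Mal on 13 of 19 and S100b on 16 of 21. In replicate 3 at 18 h, Pllp lay at 93.0 with PBS in Cy3 and at 43.7 with PBS in Cy5. PBS spots without a signal were left out. Mal in replicate 5 at 18 h (99.2) and Pllp in replicate 4 at 192 h (96.8) thus rest on PBS in Cy3 only.

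By time, the mean PBS percentile of Mal was 74.4 ± 24.4 at 18 h (SD, n = 5), with 50.8 and 95.5 in the 2 replicates at 72 h and 93.0 ± 3.55 at 192 h (SD, n = 4). That of Pllp was 87.7 ± 13.9 at 18 h, with 32.7 and 92.7 in the 2 replicates at 72 h, and 97.1 ± 1.11 at 192 h. That of S100b was 87.8 ± 10.9 at 18 h, with 97.9 and 95.7 at 72 h, and 98.6 ± 0.75 at 192 h. For Mal and Pllp the replicates at 18 h overlapped those at 192 h. For S100b those at 18 h ran from 71.8 to 96.8 and those at 192 h from 97.9 to 99.7, a difference that was not tested. How many other probes differed in this way was not counted. The lowest S100b values at 18 h, 71.8 and 81.2, were the polyA replicates, while the polyA replicates at 192 h lay at 98.3 and 97.9. Array 447 held the lowest percentile of Mal (10.6) and of Pllp (0.725) in any PBS channel used, and a high one of S100b (98.8).

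**Figure D4:**
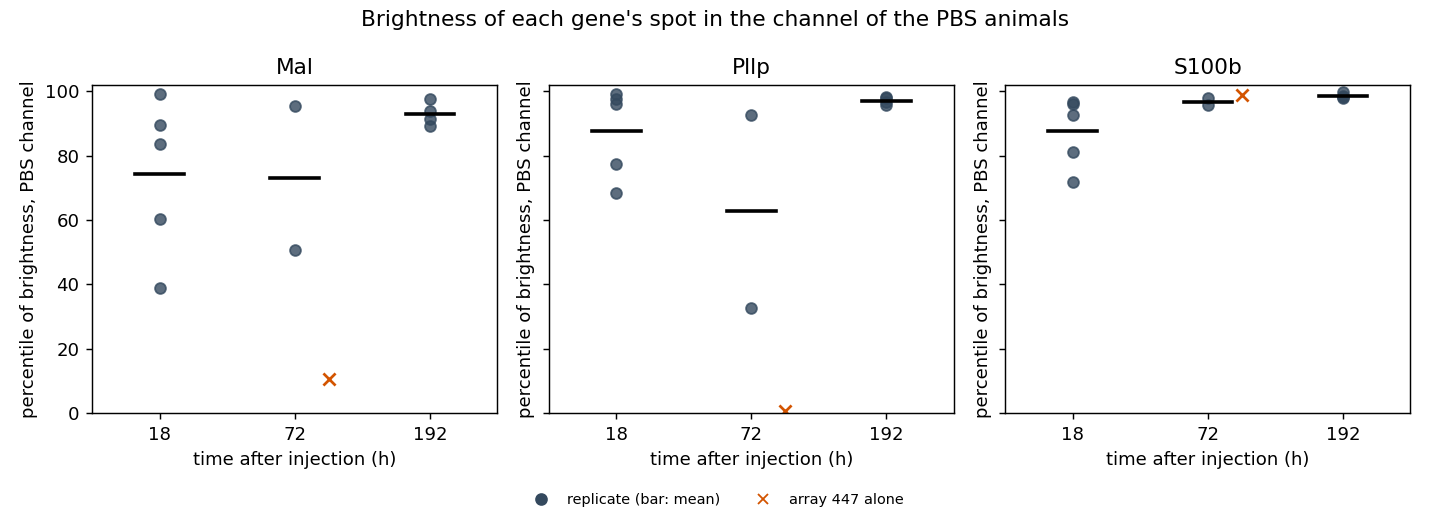
Percentile of spot brightness in the PBS channel (vertical axis, 0 to 100) against time in hours for Mal, Pllp and S100b. Points are biological replicates, the bar their mean and the orange cross array 447 alone, which lies at 10.6 for Mal, 0.725 for Pllp and 98.8 for S100b.

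The myelin and oligodendrocyte list holds Mal and Pllp. Of its 46 genes, 27 had a probe and 20 were tested, and 0 were called at any time (unadjusted p under 0.05: 1 gene at 18 h, 3 at 72 h, 0 at 192 h). Their median log2 ratios at the 3 times, in order, were 0.07, 0.01 and -0.03, against 0.00, 0.04 and 0.00 over all probes tested. Mag, the adhesion molecule between myelin and axon, gave 0.16, -0.02 and 0.07 at the 3 times, and Cldn11, which forms the tight junctions of myelin, gave -0.03, -0.17 and 0.05. Qdpr, which regenerates tetrahydrobiopterin, had the largest moderated t of the list, at 72 h (log2 ratio -0.65, limma unadjusted p = 0.00219). The other 2 of the 3 genes at 72 h lay above 0, Cd82 at 0.60 (limma unadjusted p = 0.0229) and Tspan2 at 0.35 (limma unadjusted p = 0.0479). The 1 at 18 h was Plekhb1, at 0.32 (limma unadjusted p = 0.0142). Sox10 and Olig2, transcription factors of the oligodendrocyte lineage, gave 0.36 and -0.14 at 72 h.

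The astrocyte list that holds S100b had 26 of 52 genes with a probe and 22 tested, with 0 called at any time (unadjusted p under 0.05: 0, 2 and 1). Its median log2 ratio was 0.04, 0.09 and -0.01 at 18, 72 and 192 h. The 2 at 72 h were S100b and Pla2g7, the secreted phospholipase that breaks down platelet-activating factor, which gave 0.45. The 1 at 192 h was Id3, an inhibitor of basic helix-loop-helix factors, at -0.63. Aldh1l1, the folate enzyme used as an astrocyte marker, gave -0.08, 0.03 and 0.10, and Sox9, an astrocyte transcription factor, gave 0.31 at 72 h.

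Within the MARVEL-domain family, 14 of 27 genes were tested and 0 were called at any time (unadjusted p under 0.05: 2, 2 and 0), with medians of 0.01, 0.07 and -0.05. At 72 h the chemokine-like MARVEL genes Cmtm3, Cmtm5, Cmtm6 and Cmtm8 gave -0.54, 0.09, 0.26 and 0.07. The synaptic vesicle proteins Syp, Synpr and Syngr3 and the related Sypl gave 0.15, -0.45, -0.10 and 0.06. Ocln and Marveld3 of tight junctions gave 0.05 and 0.22, and Myadm and Plp2 gave -0.11 and -0.09. Among the other family members with enough pairs, Cmtm5 alone had a Cy5 minus Cy3 difference below -1, at -1.11 (limma adjusted p = 0.242).

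Within the S100 family, 7 of 16 genes were tested and 0 were called at any time (unadjusted p under 0.05: 0, 2 and 0), with medians of -0.02, 0.22 and 0.00. The 2 at 72 h were S100b and S100a10, the annexin A2 partner, which gave 0.34. S100a11, S100a16 and S100a5 gave 0.25, 0.22 and 0.13 at 72 h, S100a3 gave 0.00, and S100a8, a protein of neutrophils and monocytes, gave -0.12. At 192 h these 5 genes and S100a10 lay between -0.10 and 0.19.

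Markers of other cells and regions were read on the same arrays. Of 17 neuron markers 13 were tested, with medians of -0.02, -0.05 and -0.03 at the 3 times, and of 16 microglia markers 3 were tested, with medians of 0.02, -0.11 and 0.03. None of either list was called. The dopamine and midbrain list had 11 of 16 genes with a probe, at a median PBS percentile of 49.6, from 31.0 for En2 to 85.8 for Calb1. Th, the rate-limiting enzyme of dopamine synthesis, lay at 38.6 and Pitx3, a transcription factor of dopamine neurons, at 79.9. Their part in the values of Mal, Pllp and S100b was not tested.

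The 3 genes did not share one pattern over the replicates. The Pearson correlation of log2 ratios over 11 replicates was 0.63 between Mal and Pllp, 0.26 between Mal and S100b and 0.26 between Pllp and S100b. Without replicate 3 at 72 h these were 0.10, -0.59 and -0.31. All replicates share the loess step and differ in dye orientation, so these are descriptions.

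For each gene, the probes with the most similar log2 ratios over the replicates were picked from 4307 candidates. For Pllp they were Jph3 (r = 0.96, n = 11), Myg1 (r = 0.95, n = 9) and Dgat1 (r = 0.94, n = 11). Each of these also had a negative Cy5 minus Cy3 difference, at -2.99 for Jph3, -4.38 for Myg1 and -2.32 for Dgat1, against a median of 0.02 over all probes. The probes were picked on the same arrays, from replicates that differ in dye orientation, so this is not a separate observation. For Mal they were Gstm5 (r = 0.95, n = 11), Mrpl4 (r = 0.94, n = 10) and Pla2g7 (r = 0.93, n = 11). For S100b they were Snrpe (r = 0.94, n = 10), Lamtor5 (r = 0.94, n = 11) and Ccdc28b (r = 0.93, n = 11). Without replicate 3 at 72 h these correlations ranged from 0.76 to 0.84 for Mal, from 0.88 to 0.93 for Pllp and from 0.86 to 0.91 for S100b.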

How the data were processed

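Per the labels, RNA was reverse transcribed with oligo dT and random primers, labelled with Cy3 or Cy5 and hybridised to in-house printed oligonucleotide arrays with 10080 spots. The authors deposited scanner files of spot intensity per channel, read here as background-subtracted intensity, with several scans per array, 63 for the arrays used. They also deposited a table of log ratios, read here as log2; its base is unknown, its column medians lie between -0.01 and 0.01, and it correlates with the scanner ratios at 0.569 to 0.858, so it served only as an alternative. Image software and background method are not given in the sources used here.

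In R 4.3.3, log2 Cy5 over Cy3 was loess-normalized within each scan (limma 3.58.1, span 0.3, 4 iterations), and scans, spots of an accession and arrays of a replicate were averaged in turn. Probes in the dimmest 33.3% were dropped, as were those with values in fewer than 3 replicates at 18 or 192 h or fewer than 2 at 72 h. A linear model with time means and the mean dye orientation of each replicate's arrays as a covariate was fitted per probe. The orientation counted all arrays of a replicate, also those without a value for the probe. Without this covariate the fitted values of Mal, Pllp and S100b were the same. Tests were limma's moderated two-sided tests with Benjamini-Hochberg adjustment over 4474 probes. Dye differences were fitted likewise over 4498 probes with at least 4 pairs. The fit was tested on simulated data.

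Besides Mal, Pllp and S100b, the text names set myelin and astrocyte markers, all tested genes of the MARVEL and S100 families, up to 2 genes of each other list by largest moderated t, and the 3 probes most correlated with each gene over at least 9 replicates. Other genes named (Cd82, Tspan2, Sox10, Olig2, Aldh1l1, Sox9, Th, En2, Calb1) were added after values were seen. Members and lists were chosen with earlier results of these data known. The number of arrays limits the precision. 7 arrays on 2 designs were not used, for the brightness mismatch described. Alternatives are given in the closing section.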

Additional observations from a re-analysis of the deposited data

Results flagged for a closer look

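The Cy5 minus Cy3 difference of Mal in replicate 3 at 72 h was -1.87, far below the next lowest of the 6 pairs (-0.26) and the highest (0.37). One of its arrays is array 447, and without it the mean difference was 0.06. Of 15 sets of replicate values checked for such a distant sample, 1 was found, and chance gives about 5% of sets.

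S100b lay above 0 in both replicates at 72 h and below 0 in all 4 at 192 h, and how many other probes did so was not counted. The fitted difference of 192 h minus 72 h was -0.43 (limma unadjusted p = 0.0350), which did not pass after adjustment (limma adjusted p = 0.773), and it was -0.29 without array 447. Of the probes tested, 5.83% had a limma unadjusted p under 0.05 for it.

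Pllp differed between the dye orientations by -2.50 (tumour sample in Cy5 minus in Cy3), below 0 in 6 of 6 pairs (exact permutation p = 0.0313, limma adjusted p = 0.114).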

How the results depend on the processing

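Pllp between orientations and for 192 h minus 72 h, S100b at 72 h and in all 3 differences between times, and Mal for 72 h minus 18 h had the same sign under every alternative run. No run left out both array 447 and replicate 4 at 192 h, on which the extreme Pllp values rest. Where a setting turned a sign or moved a count, the cause was not tested unless the setting itself leaves out arrays. Without array 447, Mal was -0.021 at 72 h, -0.079 over all replicates and 0.059 between orientations, Pllp was -0.20 over all replicates, and 13 probes were called between orientations. With orientation also computed for each probe, Mal at 72 h was -0.032. With median centring, Mal was 0.031 at 18 h, -0.085 for 192 h minus 18 h and 0.14 between orientations, S100b was 0.79 between orientations, 3 probes were called at 72 h and 112 between orientations. The first scan gave Pllp -0.27 at 18 h, Mal -0.0083 over all replicates and S100b 0.10 between orientations. The last scan gave Pllp -0.27 and S100b -0.0045 at 18 h, Mal -0.025 and Pllp -0.14 over all replicates, and 2 calls at 72 h. All 28 arrays gave Pllp -0.017 over all replicates and 1 call at 72 h. Total RNA alone gave Mal 0.034 at 192 h and 2 calls at 72 h, and the kind of RNA as a block 1 call at 72 h. Only replicates measured in both orientations gave Mal 0.034 and Pllp 0.20 at 192 h, Pllp 0.16 for 192 h minus 18 h and 4 calls at 72 h. The authors' deposited table gave Mal -0.014 at 72 h, -0.031 over all replicates, 0.036 between orientations and 0.0031 for 192 h minus 72 h, Pllp -0.098 over all replicates and -0.080 for 72 h minus 18 h, S100b 0.19 between orientations, and 2 calls between orientations. With the replicate number as a block, in place of the dye term, 3 probes were called at 72 h and 2 for the mean of the times, none of them Mal, Pllp or S100b; same-numbered replicates correlated at -0.13 to 0.31 over 8 pairs, and 7 of 11 replicates correlated best with their own number, so the numbers were not taken as pairs.

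With 1 replicate left out, calls ranged from 0 to 1 at 18 h, 0 to 291 at 72 h, 0 to 144 for the mean of the times, 0 to 126 between times and 2 to 47 between orientations. The highest counts but those at 18 h and between orientations came without replicate 4 at 72 h, where the lone replicate was assumed to vary like the other groups. Mal ranged from -0.076 to 0.82 at 72 h, -0.081 to 0.053 at 192 h, -0.0095 to 0.15 for 192 h minus 18 h, -0.86 to 0.031 for 192 h minus 72 h, -0.075 to 0.042 over all replicates and -0.39 to 0.059 between orientations. Pllp ranged from -0.0096 to 0.18 at 18 h, -0.12 to 2.62 at 72 h, -0.999 to -0.061 at 192 h, -1.10 to -0.17 for 192 h minus 18 h, -0.23 to 2.51 for 72 h minus 18 h, -3.27 to -0.54 for 192 h minus 72 h and -0.22 to 0.28 over all replicates. S100b ranged from -0.027 to 0.11 at 18 h, -0.17 to 0.019 at 192 h, -0.0017 to 0.079 over all replicates and -0.090 to 0.0089 between orientations. The array design as a block was not run, because it coincides with the kind of RNA but for 1 array. Adding 10000 to both channels, the runs without array 447 joined to another choice, and the restriction to both orientations were chosen after seeing the data.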
